A study of Mus musculus with 26 samples.

Results

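Collagen genes were described across 4 groups of mouse aorta libraries. Every row of the raw count table whose symbol had the form Col, a number, a and a second number was taken, which gave 43 of 21119 genes: 11 fibrillar, 6 of type IV, 6 of type VI and 20 others. All mice were C57BL6/J with an aorta wounded by mechanical pressure. RNA sequencing was done on lysis-buffer flushes of the lumen, called the endothelial fraction by the submitters, and on the vessel wall left behind. Tissue 48 h libraries came from abdominal wall after flushing, in 3 mice (E1A, E2A and E3A). Injured 48 h libraries were flushes of the wounded abdominal segment of 9 mice, including those 3. Injured 3 h libraries were flushes of the same segment from 5 other mice. Uninjured 48 h libraries were flushes of the unwounded thoracic segment of the 9 mice of the injured 48 h group, so every control came from an animal that carried a wound. Injury and aortic segment cannot be told apart in any comparison with the uninjured flush, and the 3 h comparisons are also between different mice. No uninjured flush at 3 h is among the libraries, so injured 3 h and uninjured flushes also differ in time.

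Collagens are secreted proteins whose chains wind around each other into a rigid helix. Fibrillar collagens form the tensile fibrils of the media and adventitia, type IV chains form the sheet of the basement membrane under endothelium and around smooth muscle, and type VI chains form fine beaded filaments close to cells. The others include collagens that coat fibrils, the short-chain network of type VIII, the basement membrane collagens XV and XVIII, and collagens that span the cell membrane.

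The chains of a type IV pair are encoded head to head, and the short stretches of DNA between the start sites are given for 2 of the 3 pairs. Col4a1 and Col4a2 had log2 fold changes of 0.57 and 0.60 at 48 h over uninjured flushes, and Col4a3 and Col4a4 -1.68 and -1.64. The third pair, Col4a6 and Col4a5, lies 1308 bases apart on the X chromosome, had -0.08 and -1.63, and is not shown. Col4a1 (chr8:11198423-11312826, minus strand) and Col4a2 (chr8:11312805-11449287, plus strand) overlap by 22 bases in their first exons, and reads there cannot be assigned to either gene without strand information. Col4a4 (chr1:82448423-82586849, minus strand) and Col4a3 (chr1:82586921-82722059, plus strand) are separated by 71 bases. The third stretch is the 250 bases before the start of Col8a1 (chr16:57624258-57754737, minus strand), the collagen gene with the highest level per length in the injured flush. Gene coordinates are GENCODE M21, sequences are from RefSeq (GRCm38.p6), and both are on the GRCm38 build of the files. Capitals mark GGGCGG, the core of a binding site for SP1-like factors, or its reverse complement CCGCCC.
Col4a1 and Col4a2, overlap, chr8:11312805-11312826, plus strand: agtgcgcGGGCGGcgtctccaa
Col4a4 and Col4a3, gap, chr1:82586850-82586920, plus strand: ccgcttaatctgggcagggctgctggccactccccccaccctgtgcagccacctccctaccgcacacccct
Col8a1, upstream, chr16:57754738-57754987, minus strand: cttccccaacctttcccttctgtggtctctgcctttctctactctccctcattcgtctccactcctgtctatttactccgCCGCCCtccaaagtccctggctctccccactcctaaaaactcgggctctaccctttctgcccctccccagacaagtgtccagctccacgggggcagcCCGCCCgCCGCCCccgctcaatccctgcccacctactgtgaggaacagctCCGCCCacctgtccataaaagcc

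The Col8a1 stretch held 4 matches to GGGCGG, the Col4a1 and Col4a2 overlap held 1, and the gap between Col4a4 and Col4a3 held none. RefSeq promoter entries were found for 34 of the 43 genes. In the 250 bases before the start, searched on both strands, GGGCGG was present in 21 of the 34, CCAAT in 13, TATAAA in 5 and TGANTCA in 1 (Col6a1). No motif contains another. Of 32851 mouse promoters of the same length, 32.7% held GGGCGG, 33.8% CCAAT, 12.4% TATAAA and 6.7% TGANTCA.

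Totals ran from 13853003 to 15560008 counts in tissue libraries, from 3904901 to 11982411 in injured 48 h flushes, from 2657169 to 4346847 in injured 3 h flushes and from 1755773 to 5294304 in uninjured flushes. The injured 48 h flush of mouse E2A stood apart from the other 8. Its summed mesothelial markers reached 664 CPM (counts scaled to library size by TMM) against 26.4 to 64.5, its Schwann markers 109 CPM against 6.82 to 13.5, its macrophage markers 5350 CPM against 555 to 3050, its adipocyte markers 983 CPM against 68.6 to 354 and its fibroblast markers 3190 CPM against 1270 to 1910. Its endothelial markers summed to 7610 CPM against 8990 to 11600. Each collagen result that rests on this library is therefore given with and without it. All 12 endothelial markers were detected in every group, and their sum ran from 2210 to 3340 CPM in tissue, 7610 to 11600 in injured 48 h, 14600 to 16800 in injured 3 h and 12400 to 14600 in uninjured libraries. In bulk RNA, fewer cells of a type and less RNA per cell cannot be told apart.

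Of the 43 collagen genes, 29 passed the filter on low counts (about 2.27 CPM in at least 3 libraries) and were tested. Of those, 9 exceeded that level in no uninjured library, so they entered the test only through groups in which they were higher. Col16a1 and Col19a1 exceeded it in tissue alone. The other 14 genes were not tested. Col2a1, Col9a2 and Col13a1 had no count in any library. Col5a3, Col7a1, Col8a2, Col9a3, Col10a1, Col11a1, Col11a2, Col17a1, Col22a1, Col26a1 and Col6a4 had between 3 and 140 counts over all 26 libraries. Among them Col8a2, the partner chain of Col8a1, had 79 counts in the 3 tissue libraries and 0 in the 9 injured 48 h flushes, which makes it at least 50.1-fold higher in tissue from a floor of 3 counts over the group.

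**Figure D1:**
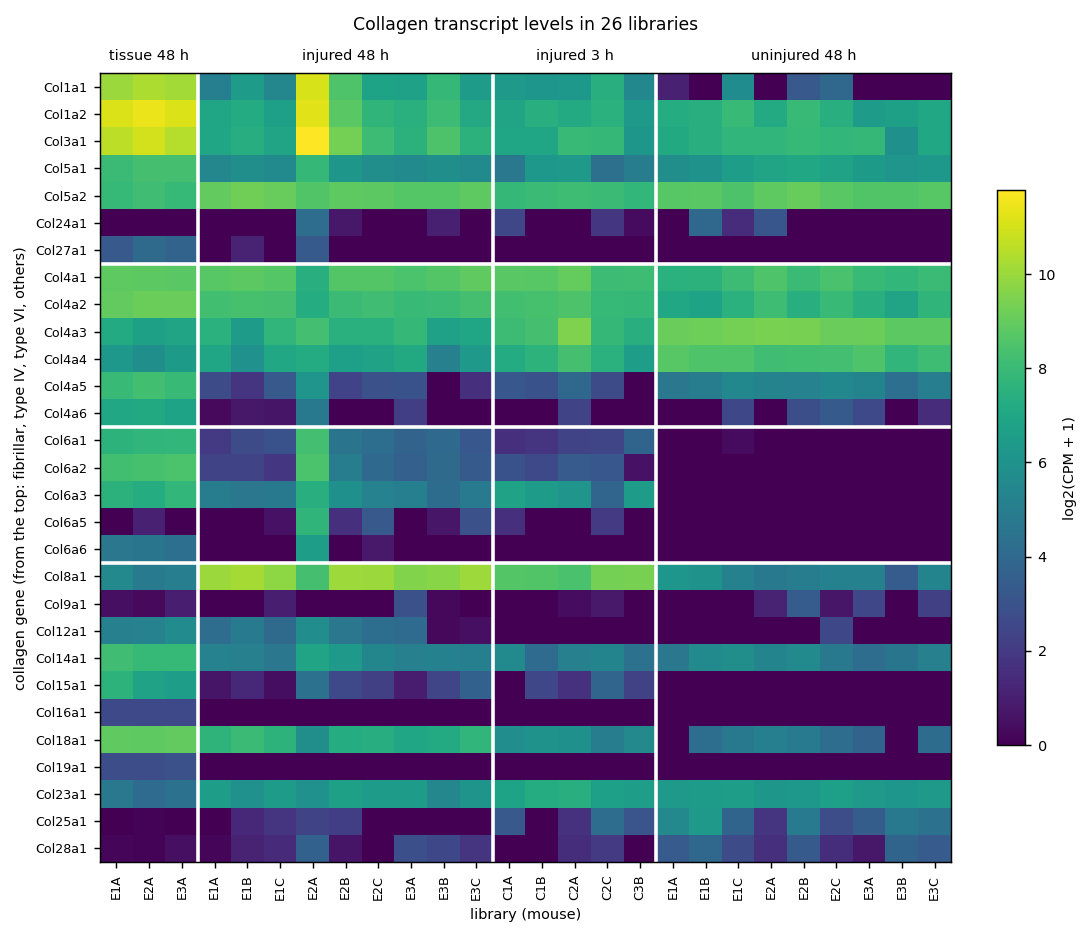
Levels of the 29 tested collagen genes as log2(CPM + 1) (colour) in each of the 26 libraries (columns, by group), with genes in rows by class. The 3 tissue columns and the injured 48 h column of mouse E2A are strong in the Col1a1, Col1a2, Col3a1 and most type VI rows, Col8a1 is strong in every injured flush, and the type VI rows of the 9 uninjured columns are dark except for 1 count of Col6a1.

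Collagen transcripts made up 0.819 ± 0.0512% of counts in tissue (mean ± SD, n = 3), 0.447 ± 0.22% in injured 48 h (n = 9; 0.376 ± 0.0487% without E2A), 0.243 ± 0.0454% in injured 3 h (n = 5) and 0.25 ± 0.0355% in uninjured flushes (n = 9). Fibrillar genes summed to 5810 ± 730 CPM in tissue, 1970 ± 2570 CPM in injured 48 h (1120 ± 386 CPM without E2A), 686 ± 172 CPM in injured 3 h and 869 ± 158 CPM in uninjured libraries. Type IV genes had the group means nearest to each other, with 1560 ± 30.6 CPM in tissue, 954 ± 82.3 CPM in injured 48 h, 1210 ± 447 CPM in injured 3 h and 1370 ± 186 CPM in uninjured libraries. Type VI genes were nearly absent from the uninjured flush, where 8 of 9 libraries had no count and E1C had 0.261 CPM. They summed to 748 ± 55.3 CPM in tissue, 177 ± 358 CPM in injured 48 h (57.5 ± 26.9 CPM without E2A) and 86.4 ± 34.5 CPM in injured 3 h. The other collagens summed to 981 ± 88 CPM in tissue, 1230 ± 280 CPM in injured 48 h, 703 ± 125 CPM in injured 3 h and 209 ± 49 CPM in uninjured libraries, and every injured flush lay above every uninjured one.

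**Figure D2:**
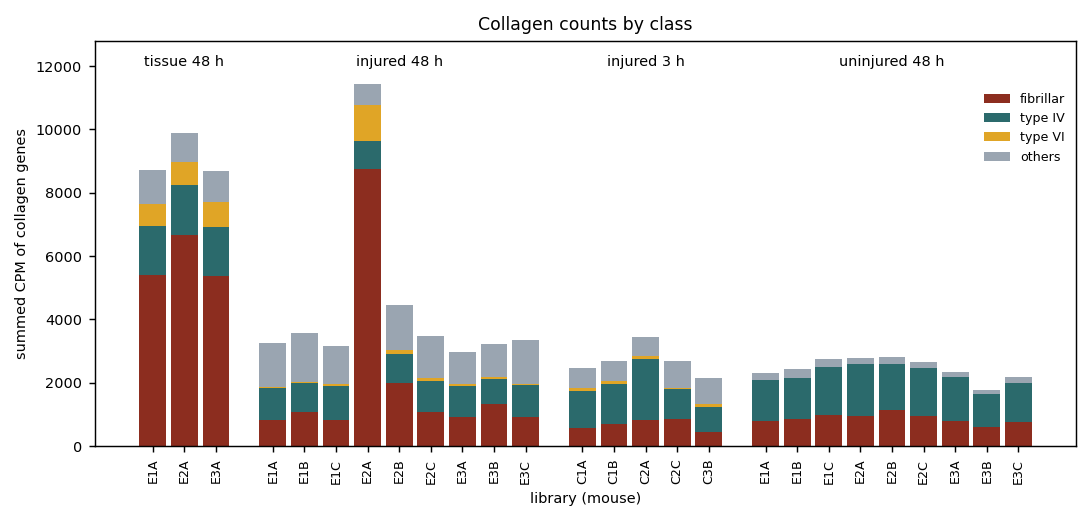
Summed CPM of collagen genes in each library (bars from 0, stacked by class), ordered by group. Fibrillar genes fill most of each tissue bar and of the injured 48 h bar of mouse E2A, which reaches 11400 CPM against 2970 to 4470 CPM in the other injured 48 h flushes.

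Levels were compared between genes as CPM per kb of the longest protein-coding transcript. In tissue the order was Col1a2 (455 ± 48.6 CPM per kb), Col3a1 (298 ± 54.9) and Col1a1 (194 ± 22.3), none of which overlapped its neighbour, followed by Col18a1 (86.2 ± 2.97) and Col4a2 (82.1 ± 5.28), which did. In the injured 48 h flush Col8a1 led with 176 ± 50.1 CPM per kb, ahead of Col3a1 (111 ± 198) and Col1a2 (84.6 ± 143), whose means were carried by E2A. Without E2A the order was Col8a1, Col5a2, Col4a1 and Col3a1. In the injured 3 h flush Col8a1 (94.2 ± 30.5 CPM per kb) and Col4a1 (57.6 ± 16.0) led. In the uninjured flush Col4a3 (66.4 ± 9.95 CPM per kb) and Col5a2 (64.1 ± 7.34) led, ahead of Col4a1 (39.0 ± 9.31). In the 3 flush groups each of the first 8 genes overlapped the next in range.

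The comparison of injured 48 h with uninjured flushes asks how collagen transcripts stood 48 h after the wound. Col8a1, Col18a1, Col4a1, Col4a2, Col1a1 and the type VI chains were higher in the injured flush, while Col4a3, Col4a4, Col4a5 and Col25a1 were lower. Of the 29 tested genes, 15 rose, 4 fell and 10 did not pass an adjusted p of 0.05 (edgeR quasi-likelihood test, Benjamini-Hochberg adjustment over 13884 genes). Across all genes tested, 24.6% were called higher and 18.0% lower. Without E2A, 11 rose and 6 fell, and with a block for mouse 8 of 19 tested rose. Of the 29, 6 lay wholly above the uninjured range and 2 wholly below, against 6.19% and 2.09% of all genes. The median log2 fold change was 0.57 over the 29 genes and 0.18 over all genes. Without E2A the middle value of the 29 was 0.31 (Col1a2), against 0.18 over all genes. Of the 15, Col6a1, Col6a2, Col6a3, Col6a5, Col6a6, Col15a1 and Col27a1 exceeded the filter level in no uninjured library. They could in effect only be called higher, and the counts, ranges and median given here include them.

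Col8a1 encodes a short chain of a network-forming collagen found under endothelium. It had 318, 1040 and 1160 CPM in the injured 48 h flushes (lowest, median and highest of 9), against 9.94, 35.2 and 72.5 CPM in the uninjured flushes (9). Every injured flush lay above every uninjured one, the lowest injured value was that of E2A, and the injured segment was higher in 9 of 9 mice. The mean was 23.3-fold higher, the log2 fold change was 4.56 ± 0.29 (SE, edgeR adjusted p = 2.46e-11), and it was 4.23, 4.72 and 4.94 within experimental batches 1, 2 and 3. Col18a1 encodes the basement membrane collagen whose end fragment is endostatin. It had 56.3, 159 and 261 CPM in injured flushes, against 0, 17.7 and 33.0 CPM in uninjured flushes. These ranges did not overlap either, E2A was again the lowest injured flush, and the log2 fold change was 3.30 ± 0.40 (edgeR adjusted p = 5.93e-07), with 3.82, 2.29 and 3.99 within batches.

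Type IV chains split by pair. Col4a1 and Col4a2, the pair of most basement membranes, were higher in 8 of 9 injured flushes than in the uninjured flush of the same mouse. Col4a1 had 174, 397 and 471 CPM in injured flushes, against 185, 259 and 367 CPM in uninjured flushes, and Col4a2 had 157, 283 and 326 CPM against 112, 170 and 274 CPM. In both genes E2A was the lowest injured flush and the ranges overlapped. The log2 fold changes were 0.57 ± 0.16 for Col4a1 and 0.60 ± 0.16 for Col4a2 (edgeR adjusted p = 0.00621 and 0.00378). They were 0.02 and 0.04 in batch 2, which holds E2A, against 1.03 and 1.15 in batch 1 and 0.75 and 0.74 in batch 3.

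Col4a3 and Col4a4, known from the specialised basement membranes of kidney and lung, fell instead. Col4a3 had 89.1, 176 and 306 CPM in injured flushes, against 442, 564 and 678 CPM in uninjured flushes. Col4a4 had 34.4, 108 and 152 CPM in injured flushes, against 212, 308 and 419 CPM in uninjured flushes. In both genes every injured flush lay below every uninjured one. The log2 fold changes were -1.68 ± 0.23 for Col4a3 and -1.64 ± 0.23 for Col4a4 (edgeR adjusted p = 3.4e-06 and 3.73e-06). Within batches they were -1.83, -1.51 and -1.68 for Col4a3 and -1.81, -1.30 and -1.74 for Col4a4. Col4a5, the third chain of that network, had 0, 5.46 and 69.4 CPM in injured flushes, against 19.0, 36.1 and 43.6 CPM in uninjured flushes. E2A alone exceeded 8.65 CPM among the injured flushes, and the other 8 lay below all uninjured ones. The log2 fold change was -1.63 ± 0.61 (edgeR adjusted p = 0.0335). It was -2.87 without E2A (adjusted p = 9.79e-06), and the call was lost when E1A, E1B, E1C, E2B, E2C, E3A or E3C was left out in its place. Col4a6, which pairs with Col4a5 around smooth muscle, had 0 to 26 CPM in injured flushes, against 0 to 9.19 CPM in uninjured flushes. Its log2 fold change was -0.08 (edgeR adjusted p = 0.963), or -2.49 without E2A (adjusted p = 0.0357).

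Type VI collagen transcripts were detected in injured flushes and almost nowhere in uninjured ones, and all 5 tested chains were called higher. Col6a3, which encodes the longest of the classical chains, had 16.7, 30.0 and 171 CPM in the injured 48 h flushes and no count in the 9 uninjured flushes, so it was at least 345-fold higher (floor of 3 counts over the group; at least 287-fold without E2A). Col6a2 had 2.66, 11.4 and 347 CPM in injured flushes and no count in uninjured flushes, which makes it at least 233-fold higher (at least 92.4-fold without E2A). Col6a1 had 3.03, 12.6 and 302 CPM in injured flushes, against 1 count in all uninjured flushes. For Col6a1 the ratio of summed counts per total was 644 (exact 95% interval 115 to 25400, counting error only), or 280 without E2A, which held 1056 of the 1803 injured counts. Uninjured E1C held the 1 uninjured count. All 3 were higher in 9 of 9 mice, and E2A was the highest injured flush for each. The edgeR adjusted p was 4.13e-07 for Col6a3, 0.000378 for Col6a2 and 6.06e-06 for Col6a1, and these 3 calls held without E2A and with the block for mouse. Col6a5 and Col6a6, chains that can take the place of Col6a3, were uneven. Col6a5 had counts in 6 of 9 injured flushes (211 CPM in E2A, at most 8.91 elsewhere) and was at least 108-fold higher, or at least 20.5-fold without E2A. Col6a6 had 94.2 CPM in E2A, 0.734 CPM in E2C and 0 in the other 7, and its call was lost without E2A (edgeR adjusted p = 0.0262 with it, 0.18 without it).

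The fibrillar genes gave no common direction once E2A was set aside. Col1a1, a chain of type I collagen, had 32.5, 107 and 2120 CPM in injured flushes, against 0, 0 and 51.4 CPM in uninjured flushes. It was not detected in 5 of 9 uninjured flushes, and the highest uninjured flush (E1C) lay above the lowest injured one. The log2 fold change was 5.20 ± 0.93 (edgeR adjusted p = 9.35e-05), 3.81 without E2A and 6.59 without uninjured E1C, and it was 1.49 within batch 1 (not past the threshold) and 6.70 within batch 2. In batch 3 the injured flushes had 107, 230 and 87.8 CPM and the uninjured flushes no count. Col1a2, the other chain of type I collagen, had 98.6, 180 and 2470 CPM in injured flushes, against 89.1, 155 and 254 CPM in uninjured flushes. The call of Col1a2 (log2 fold change 1.47 ± 0.49, edgeR adjusted p = 0.0194) rested on E2A. Without that library it was 0.31 (adjusted p = 0.314), with a block for mouse 0.51 (adjusted p = 0.342), and within batches -0.60, 2.45 and 0.88. Col3a1, the chain of type III collagen, had 118, 190 and 3520 CPM in injured flushes, against 59.6, 217 and 238 CPM in uninjured flushes. The log2 fold change of Col3a1, 1.76 ± 0.55 (edgeR adjusted p = 0.012), was 0.51 without E2A (adjusted p = 0.184), 0.67 with a block for mouse (adjusted p = 0.241) and -0.37, 2.70 and 0.80 within batches. The authors' deposited table gives log2 fold changes of 0.24 for Col1a2 (adjusted p = 0.416) and 0.42 for Col3a1 (adjusted p = 0.218). Col3a1 was higher in 5 of 9 mice, and Col1a2 in 6 of 9.

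Type V collagen starts the assembly of type I and III fibrils, and neither of its tested chains passed. Col5a1 had 43.4, 55.0 and 228 CPM in injured flushes, against 55.1, 85.9 and 128 CPM in uninjured flushes, and was lower in 8 of 9 mice. Its log2 fold change was -0.31 ± 0.30 (edgeR adjusted p = 0.413), or -0.73 without E2A (adjusted p = 0.00972) and -0.53 with a block for mouse (adjusted p = 0.0336). Col5a2 had 387, 460 and 605 CPM in injured flushes, against 364, 423 and 523 CPM in uninjured flushes, and its log2 difference was 0.13 ± 0.08 (edgeR adjusted p = 0.206). Col27a1, a minor fibrillar chain, had counts in 2 injured flushes alone (9.14 CPM in E2A and 1.26 CPM in E1B). It was called higher at an edgeR adjusted p of 0.0466, which was 0.13 without E2A and also missed the threshold without E1B or without any one of the uninjured flushes. Col24a1, another minor fibrillar chain, had 17.7 CPM in E2A and at most 1.03 CPM in the other injured flushes, against 0 to 14.7 CPM in uninjured flushes (edgeR adjusted p = 0.87).

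**Figure D3:**
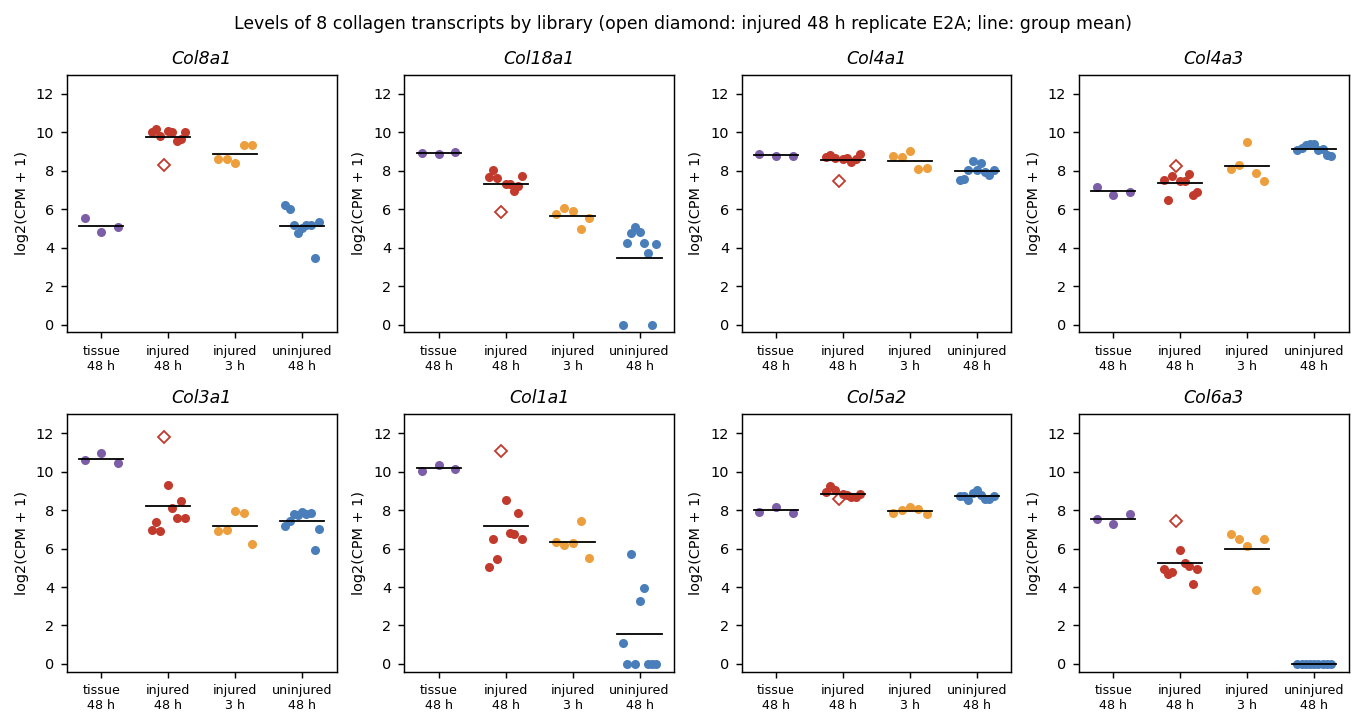
Levels of 8 collagen genes by library as log2(CPM + 1) (vertical axes), with groups along the horizontal axes, points for libraries, lines for group means and an open diamond for the injured 48 h flush of mouse E2A. Col8a1 separates injured from uninjured flushes, Col4a3 has its highest group mean in uninjured flushes, and the diamond lies above the other injured 48 h points for Col3a1, Col1a1 and Col6a3 and below them for Col8a1, Col18a1 and Col4a1.

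Among the remaining collagens, Col12a1 and Col15a1 were called higher and Col25a1 lower. Col12a1, a fibril-coating collagen, had 0.206, 17.8 and 54.5 CPM in injured flushes, against 4.8 CPM in uninjured E2C and no count in the other 8. Its log2 fold change was 4.78 ± 1.01 (edgeR adjusted p = 0.000759), and the call held without that uninjured flush, which left no uninjured count and a fitted value of 9.88 that is no bound. Within batches 2 and 3 alone Col12a1 was not called. Col14a1, another of that kind, had 24.6, 35.6 and 116 CPM in injured flushes, against 17.6, 34.0 and 55.6 CPM in uninjured flushes, and did not pass (log2 fold change 0.47 ± 0.28, edgeR adjusted p = 0.18). Col15a1, the basement membrane relative of Col18a1, had 0.333, 3.67 and 20.0 CPM in injured flushes and no count in uninjured flushes, so it was at least 34.9-fold higher (at least 27.8-fold without E2A). The transmembrane collagen gene Col25a1 had 0, 0 and 4.28 CPM in injured flushes, against 2.5, 20.0 and 78.7 CPM in uninjured flushes. E2A was the one injured flush above its mouse's uninjured flush, and the log2 fold change was -4.31 ± 0.98 (edgeR adjusted p = 0.00116). Col23a1, also transmembrane, had 43.0, 87.5 and 104 CPM in injured flushes, against 71.8, 80.4 and 99.4 CPM in uninjured flushes (log2 fold change -0.09 ± 0.15, edgeR adjusted p = 0.647). Col28a1 had 0 to 11.7 CPM in injured flushes, against 0.712 to 14.1 CPM in uninjured flushes, and Col9a1 had 0 to 6.47 CPM against 0 to 9.71 CPM. Neither passed (edgeR adjusted p = 0.272 and 0.378). Injured E3A held the 6.47 CPM of Col9a1, and without it Col9a1 was lower (log2 fold change -3.63, edgeR adjusted p = 0.0239, against -1.38 with it).

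Markers of several other cell types were also higher in the injured 48 h flush, with E2A included in every call. All genes tested gave 24.6% higher and 18.0% lower calls in this comparison. Of 12 fibroblast markers 8 were called higher and 1 lower, and their sum ran from 1270 to 3190 CPM in injured flushes and from 635 to 1350 CPM in uninjured flushes, with none of the 12 at 0 in either group. Of 11 smooth muscle markers 8 were higher and none lower, with sums of 1190 to 1950 CPM in injured flushes and 269 to 1560 CPM in uninjured flushes, where Cnn1 and Des were at 0. All 9 tested macrophage markers of 10 were higher, with sums of 555 to 5350 CPM in injured flushes and 65.3 to 212 CPM in uninjured flushes, where C1qa and Fcgr1 were at 0. Of 8 pericyte markers, 6 were tested, 4 were higher and 1 lower, with sums of 106 to 409 CPM in injured flushes, where Ndufa4l2 was at 0, and 82.5 to 174 CPM in uninjured flushes, where Kcnj8, Cspg4, Notch3 and Ndufa4l2 were at 0. Without E2A the highest injured sum was 1910 CPM for fibroblast and 3050 CPM for macrophage markers. Of 12 endothelial markers 3 were higher and 7 lower, and of 9 tested adipocyte markers 1 was higher and 2 lower. Higher and lower calls were 6 and 0 of 10 for neutrophil, 3 and 1 of 7 for platelet and 6 and 0 of 7 for mesothelial markers. They were 3 and 0 of 4 for Schwann and 1 and 1 of 5 for chondrocyte markers. Without E2A the mesothelial sums were 26.4 to 64.5 CPM in injured flushes, against 16.3 to 48.8 CPM in uninjured flushes. Schwann sums without E2A were 6.82 to 13.5 CPM, against 0 to 13.1 CPM. Both thus overlapped the uninjured range apart from E2A. The part of these cells in the collagen values was not tested. Col8a1 and Col18a1 were higher in the injured flush without E2A as well, by 4.68 and 3.42 on the log2 scale (edgeR adjusted p = 3.36e-12 and 1.1e-07).

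The comparison of injured 3 h with uninjured flushes asks which collagen differences were present in the earlier injured flushes. It uses the same 9 uninjured flushes as the 48 h comparison, all taken at 48 h. Time therefore differs along with injury, segment and mouse, and these cannot be told apart. Col8a1, Col18a1, Col4a1, Col4a2, Col23a1, Col1a1, Col15a1, Col6a1, Col6a2 and Col6a3 were higher, and Col5a2, Col4a4 and Col4a5 were lower. These were 10 higher and 3 lower calls of 29, where all genes tested gave 16.1% higher and 11.1% lower. Of the 29, 4 lay wholly above the uninjured range and 2 wholly below, against 5.93% and 2.38% of all genes, and the median log2 fold change was 0 both over the 29 genes and over all genes. Among the 10, Col6a1, Col6a2, Col6a3 and Col15a1 exceeded the filter level in no uninjured library, so they could in effect only be called higher.

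Col8a1 had 392, 383, 332, 646 and 655 CPM in the injured 3 h flushes of mice C1A, C1B, C2A, C2C and C3B, against 9.94 to 72.5 CPM in uninjured flushes. All 5 lay above all 9. On the log2 scale the difference was 3.65 ± 0.30 (edgeR adjusted p = 1.54e-09), and 2.77, 3.97 and 4.50 within batches. C3B was the only injured 3 h flush of batch 3, here and in all values within batches that follow for 3 h. Col18a1 had 53.3, 65.0, 59.7, 30.6 and 45.0 CPM in injured 3 h flushes, against 0 to 33.0 CPM in uninjured flushes. C2C alone overlapped, and the log2 fold change was 1.57 ± 0.44 (edgeR adjusted p = 0.00892), with 1.89, 0.82 and 2.13 within batches. Col23a1 had 113, 158, 165, 101 and 94.6 CPM in injured 3 h flushes, against 71.8 to 99.4 CPM in uninjured flushes. C3B alone overlapped, and the log2 difference was 0.60 ± 0.17 (edgeR adjusted p = 0.00991).

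Col5a2 was lower at 3 h in every library. It had 229, 258, 281, 261 and 223 CPM in injured 3 h flushes, against 364 to 523 CPM in uninjured flushes. Its log2 difference was -0.76 ± 0.10 (edgeR adjusted p = 4.05e-06), with -0.74, -0.81 and -0.84 within batches. Col5a1, its partner chain, had 25.4, 75.6, 78.5, 19.5 and 30.4 CPM in injured 3 h flushes, against 55.1 to 128 CPM in uninjured flushes (log2 fold change -0.96 ± 0.38, edgeR adjusted p = 0.0594), and passed without C1B, C2A or uninjured E1A (0.0325, 0.0272 and 0.0498). Col3a1 had 119, 122, 246, 232 and 74.9 CPM in injured 3 h flushes, against 59.6 to 238 CPM in uninjured flushes. Col1a2 had 117, 174, 146, 182 and 83.2 CPM in injured 3 h flushes, against 89.1 to 254 CPM in uninjured flushes. Neither passed (edgeR adjusted p = 0.871 for Col3a1 and 0.836 for Col1a2). Col1a1 had 81.2, 72.8, 76.0, 169 and 44.5 CPM in injured 3 h flushes, against 0 to 51.4 CPM in uninjured flushes. On the log2 scale Col1a1 was higher by 3.21 ± 0.96 (edgeR adjusted p = 0.0147), or 4.56 without uninjured E1C, the one uninjured flush above the lowest injured one.

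Of the type IV genes at 3 h, Col4a1 and Col4a2 were called higher and Col4a4 and Col4a5 lower. Col4a1 had 431, 416, 513, 268 and 278 CPM in injured 3 h flushes, against 185 to 367 CPM in uninjured flushes. The call of Col4a1 (log2 fold change 0.56 ± 0.19, edgeR adjusted p = 0.027) missed the threshold without C1A, C1B, C2A or uninjured E1C, where the value was 0.51, 0.53, 0.43 or 0.52. Col4a2 had 293, 331, 357, 237 and 228 CPM in injured 3 h flushes, against 112 to 274 CPM in uninjured flushes (log2 fold change 0.68 ± 0.18, edgeR adjusted p = 0.00684). In both genes C1A, C1B and C2A lay above the uninjured range and C2C and C3B within it. Col4a3 had 270, 318, 730, 232 and 174 CPM in injured 3 h flushes, against 442 to 678 CPM in uninjured flushes. C2A was above the uninjured range and the other 4 below it, and the log2 fold change was -0.72 ± 0.27 (edgeR adjusted p = 0.0515; -1.19 and 0.000653 without C2A, -0.76 and 0.0478 without uninjured E3C). Col4a4 had 152, 198, 314, 181 and 93.4 CPM in injured 3 h flushes, against 212 to 419 CPM in uninjured flushes. The call of Col4a4 (log2 fold change -0.79 ± 0.27, edgeR adjusted p = 0.0312) missed the threshold without C1A, C1B, C2C or C3B, where the value was -0.72, -0.81, -0.78 or -0.62. Col4a5 had 8.04, 6.87, 14.7, 5.74 and 0 CPM in injured 3 h flushes, all below the uninjured range of 19.0 to 43.6 CPM. The call of Col4a5 (log2 fold change -2.29 ± 0.81, edgeR adjusted p = 0.038) was lost without any one of the same 4, where the value was -2.34, -2.28, -2.23 or -1.93. Within batches 1, 2 and 3 the log2 fold changes were 0.98, 0.28 and 0.18 for Col4a1, 1.10, 0.36 and 0.44 for Col4a2 and -1.15, -0.27 and -1.65 for Col4a4. Col4a6 had 4.38 CPM in C2A and no count in the other 3 h flushes (edgeR adjusted p = 0.399).

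Type VI chains were detected in the injured flush at 3 h as well. Col6a3 had 108, 88.7, 69.7, 13.4 and 90.8 CPM in injured 3 h flushes and no count in uninjured flushes, which puts it at least 674-fold above them (edgeR adjusted p = 2.99e-07). Col6a2 had 6.77, 5.0, 9.38, 8.04 and 0.506 CPM in injured 3 h flushes and no count in uninjured flushes. It was at least 49.5-fold higher, at an edgeR adjusted p of 0.0467 that missed the threshold when any one of the 14 libraries was left out. Col6a1 had 2.12, 2.5, 4.38, 4.59 and 12.9 CPM in injured 3 h flushes, against 1 count in the uninjured flushes. Its ratio of summed counts was 157 (exact 95% interval 27.5 to 6280) and its edgeR adjusted p was 0.00657. C3B held 51 of the 90 counts, and without it the ratio was 91.9 (adjusted p = 0.0388). Col15a1 had 0, 4.69, 2.19, 13.4 and 4.05 CPM in injured 3 h flushes and no count in uninjured flushes, which puts it at least 42.5-fold above them (edgeR adjusted p = 0.00184), or at least 26.7-fold without C2C (adjusted p = 0.00715). Col6a5 had counts in C1A and C2C only (2.12 and 3.06 CPM, edgeR adjusted p = 0.224), and Col12a1, Col6a6 and Col27a1 had no count in any injured 3 h flush. Col14a1 had 16.2 to 47.8 CPM and Col25a1 0 to 17.6 CPM in injured 3 h flushes, against 17.6 to 55.6 and 2.5 to 78.7 CPM in uninjured flushes. Neither passed, nor did Col28a1, Col9a1 or Col24a1 (edgeR adjusted p = 0.792, 0.232, 0.0783, 0.189 and 0.798). Without C2C Col28a1 was lower (log2 fold change -3.88, edgeR adjusted p = 0.0439).

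Fibroblast markers summed to 1840 to 2690 CPM in injured 3 h flushes and 635 to 1350 CPM in uninjured flushes, with 4 of 12 called higher, 1 lower and Pdgfra at 0 at 3 h. Mean levels at 3 h were 147 CPM for Dcn, 7.86 for Fbln1, 4.85 for Lum and 0.188 for Lama2. In uninjured flushes they were 99.4, 2.47, 2.45 and 17.3 CPM in that order. Other markers of the list made up most of the sum at 3 h. Smooth muscle markers summed to 1180 to 1680 CPM in injured 3 h flushes and 269 to 1560 CPM in uninjured flushes (uninjured E2A was the one uninjured flush within the 3 h range), with 7 of 11 higher, none lower and none at 0 at 3 h. Platelet markers summed to 641 to 1340 CPM in injured 3 h flushes and 81.0 to 183 CPM in uninjured flushes, with 5 of 7 tested higher, and none at 0 at 3 h. Macrophage markers summed to 164 to 954 CPM in injured 3 h flushes, where C1qa was at 0, and 65.3 to 212 CPM in uninjured flushes, with 5 of 9 tested higher. Pericyte markers summed to 150 to 547 CPM in injured 3 h flushes, where Notch3 and Ndufa4l2 were at 0, and 82.5 to 174 CPM in uninjured flushes, with 2 of 6 tested higher and 1 lower. The part of these cells in the 3 h values was not tested. All genes tested gave 16.1% higher and 11.1% lower calls at 3 h.

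**Figure D4:**
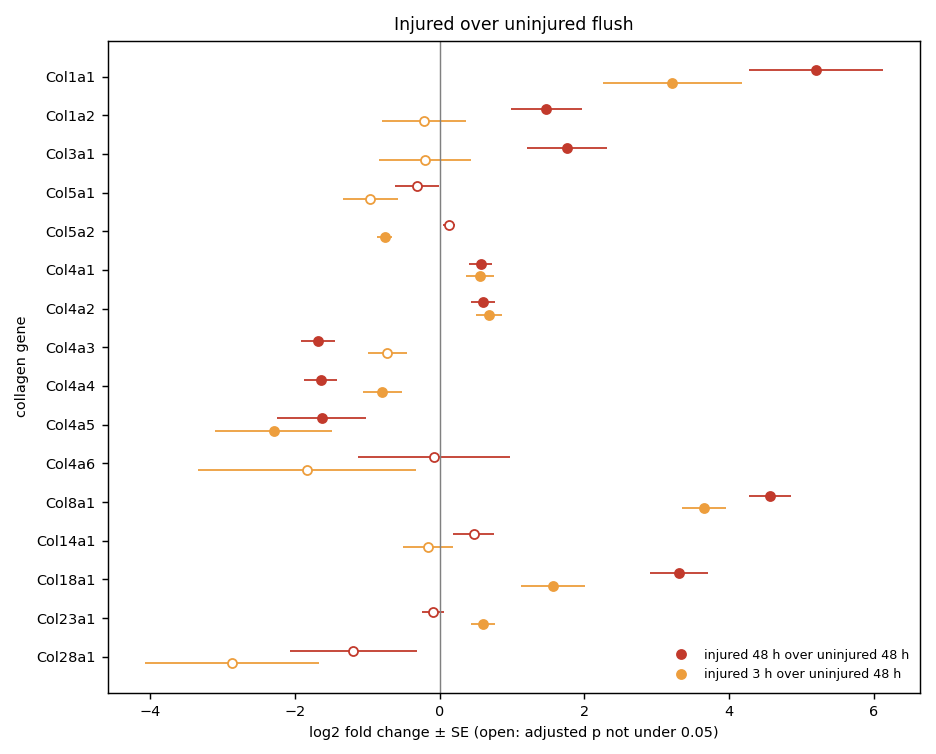
Log2 fold changes ± SE (horizontal axis) of 16 collagen genes for injured 48 h and injured 3 h over uninjured flushes, with filled points where the edgeR adjusted p was under 0.05. Col8a1 and Col18a1 lie right of 0 at both times, Col4a3 (open at 3 h) and Col4a4 lie left of it, and Col5a2 lies left of it at 3 h alone, with the same uninjured flushes in both comparisons.

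The comparison of injured 48 h with injured 3 h flushes asks what differed between the 2 times. Col8a1, Col18a1, Col5a2, Col12a1, Col3a1 and Col6a1 were higher at 48 h, and Col4a3, Col4a4 and Col23a1 were lower. That was 6 higher and 3 lower of 29, where all genes tested gave 9.70% higher and 8.59% lower. Without E2A it was 4 higher and 4 lower. The median log2 fold change was 0.89 over the 29 genes and 0.09 over all genes. Without E2A the middle value of the 29 was 0.38 (Col14a1), against 0.07 over all genes. Of the 29, 2 lay wholly above the 3 h range and none wholly below, against 5.12% and 4.39% of all genes. Groups at both times enter the comparisons above as well.

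Col5a2 and Col12a1 were the 2 genes without overlap. Col12a1 exceeded the filter level in no injured 3 h flush, so against those it could in effect only be called higher. The counts and ranges of this comparison include it. Its lowest injured 48 h flushes, E3B and E3C, held 1 and 3 counts. Col5a2 had 387, 460 and 605 CPM in injured 48 h flushes, against 223 to 281 CPM in injured 3 h flushes, and the log2 fold change was 0.89 ± 0.10 (edgeR adjusted p = 8.35e-07), with 1.19, 0.69 and 0.96 within batches. Col12a1 had a count in all 9 injured 48 h flushes (0.206 to 54.5 CPM) and none in the 5 injured 3 h flushes, which puts it at least 93.6-fold higher at 48 h (edgeR adjusted p = 0.00171). Col18a1 had 56.3 to 261 CPM in injured 48 h flushes, against 30.6 to 65.0 CPM in injured 3 h flushes, and E2A alone lay within the 3 h range. On the log2 scale Col18a1 was higher by 1.73 ± 0.45 (edgeR adjusted p = 0.00819), and by 1.93, 1.48 and 1.86 within batches. Col8a1 had 318 to 1160 CPM in injured 48 h flushes, against 332 to 655 CPM in injured 3 h flushes. E2A was the lowest of the injured 48 h flushes, and the other 8 lay above the 3 h range. Its log2 fold change was 0.90 ± 0.30 (edgeR adjusted p = 0.0348), or 1.03 without E2A (adjusted p = 0.00671). The call was lost without C1A, C1B, C2A, E1B, E2B or E2C, and the values within batches were 1.46, 0.75 and 0.44.

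Of the genes lower at 48 h, Col4a3 and Col4a4 were called only with C2A among the 3 h flushes. The log2 fold change was -0.96 ± 0.26 for Col4a3 (edgeR adjusted p = 0.0102) and, for Col4a4, -0.85 ± 0.26 (edgeR adjusted p = 0.0216). Without C2A these were -0.49 and -0.58 (edgeR adjusted p = 0.142 and 0.132), and within batches they were -0.82, -1.12 and -0.18 for Col4a3 and -0.66, -1.03 and -0.09 for Col4a4. Col23a1 had 43.0, 87.5 and 104 CPM in injured 48 h flushes, against 94.6 to 165 CPM in injured 3 h flushes (log2 fold change -0.69 ± 0.17, edgeR adjusted p = 0.00503). Without E2A, Col6a3 was lower at 48 h too, with 16.7 to 59.0 CPM in injured 48 h flushes, against 13.4 to 108 CPM in injured 3 h flushes. Its log2 fold change was -1.20 (edgeR adjusted p = 0.021), or -0.66 with E2A (adjusted p = 0.38). The calls of Col3a1 (log2 fold change 1.96 ± 0.69, edgeR adjusted p = 0.0473) and Col6a1 (2.96 ± 0.92, adjusted p = 0.0248) rested on E2A: without it the log2 fold changes were 0.71 (edgeR adjusted p = 0.196) and 1.08 (0.0771). Both were also lost without C1A, C1B, C2A or C2C, and Col3a1 without C3B or E2B. Col1a2 missed the threshold (log2 fold change 1.68 ± 0.62, edgeR adjusted p = 0.0576), and passed without E1A, E1B, E1C, E3A or E3C (1.80 to 1.83).

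The comparison of tissue with injured 48 h flushes asks which collagen transcripts were higher in the wall and which in the flush. The injured 48 h libraries are the same as above. The fibril genes Col1a2 and Col5a1, the type IV genes Col4a2, Col4a5 and Col4a6, all 3 of Col6a1, Col6a2 and Col6a3, and Col14a1, Col15a1, Col16a1, Col18a1 and Col19a1 were higher in the wall. Col8a1, Col5a2, Col23a1 and Col25a1 were lower. Of 29 tested genes, 13 were higher and 4 lower in tissue, where all genes tested gave 13.5% higher and 22.0% lower. Without E2A 17 were higher and 3 lower, and with a block for mouse over the 3 mice with both libraries 5 were higher of 26 tested. Of the 29, 9 lay wholly above the flush range and 3 wholly below, against 18.5% and 17.8% of all genes. The median log2 fold change was 1.42 over the 29 genes and -0.15 over all genes. Without E2A the middle value of the 29 was 2.48 (Col5a1), against -0.14 over all genes. Among the 13, Col16a1 and Col19a1 passed the filter through tissue alone.

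Col8a1 had 46.0, 27.6 and 32.4 CPM in the tissue of mice E1A, E2A and E3A, against 318 to 1160 CPM in injured 48 h flushes, and its log2 fold change was -4.67 ± 0.47 (edgeR adjusted p = 1.25e-08). These tissue levels lay within the uninjured flush range of 9.94 to 72.5 CPM. Col5a2 had 240, 285 and 233 CPM in tissue, against 387 to 605 CPM in injured 48 h flushes (log2 fold change -0.88 ± 0.13, edgeR adjusted p = 3.87e-06). Col23a1 had 25.6, 16.6 and 21.0 CPM in tissue, against 43.0 to 104 CPM in injured 48 h flushes (log2 fold change -1.89 ± 0.23, edgeR adjusted p = 3.85e-07). Every tissue library lay below every injured flush for these 3 genes, with the same calls under the block for mouse. Within batches, each with 1 tissue library, the log2 fold changes were -4.49, -4.85 and -4.74 for Col8a1, -1.18, -0.57 and -0.86 for Col5a2 and -1.70, -2.34 and -1.65 for Col23a1. Col25a1 had 1 count in tissue and 89 in the injured flushes, a ratio of summed counts per total of 0.0214 (exact 95% interval 0.000535 to 0.122). Its edgeR adjusted p of 0.0457 missed the threshold without any one of the tissue libraries or without E1B, E1C, E2A or E2B.

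The chains of types I and III had the highest levels per length in the wall. Col1a2 had 2290, 2740 and 2280 CPM in tissue, against 98.6 to 437 CPM in 8 injured flushes and 2470 CPM in that of E2A. Its log2 fold change was 2.43 ± 0.62 (edgeR adjusted p = 0.00284), 3.62 without E2A and 2.88 with a block for mouse (adjusted p = 0.106). Col1a1 had 1040, 1300 and 1120 CPM in tissue, against 32.5 to 370 CPM in 8 injured flushes and 2120 CPM in E2A. Col3a1 had 1550, 2000 and 1410 CPM in tissue, against 118 to 640 CPM in 8 injured flushes and 3520 CPM in E2A. In mouse E2A, Col1a1 and Col3a1 were thus higher in the flush than in the wall. Neither passed with E2A (log2 fold changes 1.71 and 1.42, edgeR adjusted p = 0.176 and 0.115), and both did without it (3.12 and 2.71, adjusted p = 0.00166 and 6.26e-06). Col5a1 had 260, 312 and 318 CPM in tissue, against 43.4 to 228 CPM in injured flushes (log2 fold change 2.03 ± 0.39, edgeR adjusted p = 0.000169; 2.00 and 0.0588 with the block). Col14a1 had 289, 240 and 240 CPM in tissue, against 24.6 to 116 CPM in injured flushes (log2 fold change 2.41 ± 0.35, edgeR adjusted p = 5.55e-06). Tissue lay wholly above the flush for Col5a1 and Col14a1.

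Among type IV chains, the pair of smooth muscle basement membranes stood highest over the flush. Col4a5 had 250, 292 and 244 CPM in tissue, against 0 to 69.4 CPM in injured flushes, and its log2 fold change was 4.57 ± 0.74 (edgeR adjusted p = 2.55e-05; 5.84 without E2A). Col4a6 had 129, 143 and 113 CPM in tissue, against 0 to 26 CPM in injured flushes, and its log2 fold change was 5.37 ± 1.28 (edgeR adjusted p = 0.00174; 7.80 without E2A; 4.96 and 0.0555 with the block). E2A was the highest flush in both genes, and within batches the log2 fold changes were 5.47, 3.55 and 6.37 for Col4a5 and 7.97, 4.17 and 6.58 for Col4a6. Col4a2 had 491, 555 and 543 CPM in tissue, against 157 to 326 CPM in injured flushes (log2 fold change 0.95 ± 0.21, edgeR adjusted p = 0.000804). Col4a1 had 463, 442 and 428 CPM in tissue, against 174 to 471 CPM in injured flushes, and did not pass (log2 fold change 0.21 ± 0.22, edgeR adjusted p = 0.512). Col4a3 had 144, 104 and 116 CPM in tissue, against 89.1 to 306 CPM in injured flushes, and Col4a4 had 77.2, 58.2 and 84.1 CPM against 34.4 to 152 CPM. Neither passed (edgeR adjusted p = 0.212 and 0.231), although with the block Col4a4 was lower in tissue (-0.89, adjusted p = 0.0336).

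Col6a1, Col6a2, Col6a3, Col18a1 and Col15a1 were higher in the wall as well, while Col6a5 and Col6a6 did not pass. Col6a1 had 198, 214 and 220 CPM in tissue, against 3.03 to 22.3 CPM in 8 injured flushes and 302 CPM in E2A (log2 fold change 2.30 ± 0.81, edgeR adjusted p = 0.0283; 4.22 without E2A). Col6a2 had 300, 330 and 352 CPM in tissue, against 2.66 to 29.8 CPM in 8 injured flushes and 347 CPM in E2A (2.78 ± 1.02, edgeR adjusted p = 0.0415; 4.85 without E2A). Col6a3 had 187, 155 and 221 CPM in tissue, against 16.7 to 59.0 CPM in 8 injured flushes and 171 CPM in E2A (2.00 ± 0.54, edgeR adjusted p = 0.00738; 2.57 without E2A). None of the 3 passed with the block (edgeR adjusted p = 0.188, 0.142 and 0.12). The calls of Col6a1 and Col6a2 were lost without any one tissue library, and that of Col6a2 also without any one injured flush other than E1C and E2A. Col18a1 had 477, 468 and 500 CPM in tissue, against 56.3 to 261 CPM in injured flushes (log2 fold change 1.52 ± 0.45, edgeR adjusted p = 0.0103). Col15a1 had 196, 108 and 92.9 CPM in tissue, against 0.333 to 20.0 CPM in injured flushes (log2 fold change 4.67 ± 0.87, edgeR adjusted p = 0.000374). Tissue lay wholly above the flush for both.

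Some collagen genes were read in the wall almost alone. Col19a1 had 5.92, 5.8 and 6.47 CPM and Col16a1 5.03, 5.0 and 5.04 CPM in tissue, with no count in any of the 23 flushes. Against injured 48 h flushes Col19a1 was at least 152-fold and Col16a1 at least 126-fold higher, a difference the filter on low counts required of them. Their edgeR adjusted p was 0.00142 and 0.00157, against 0.0663 and 0.0769 with the block for mouse. Col6a6 had 24.2, 23.2 and 18.5 CPM in tissue, against 0 to 94.2 CPM in injured flushes, and Col27a1 had 8.93, 15.6 and 12.3 CPM against 0 to 9.14 CPM. Both passed only without E2A (edgeR adjusted p = 0.00046 and 0.00518). Col12a1 had 33.5, 35.8 and 50.8 CPM in tissue, against 0.206 to 54.5 CPM in injured flushes, and did not pass (edgeR adjusted p = 0.506). Col28a1 had at most 0.376 CPM and Col9a1 at most 0.977 CPM in tissue, against up to 11.7 and 6.47 CPM in injured flushes, and neither passed (edgeR adjusted p = 0.0575 and 0.836), although Col28a1 was lower without injured E1A or E2C (0.0461 and 0.0361). Col24a1 had no count in tissue and was at least 12.8-fold lower, or at least 2.02-fold lower without E2A, which held 62 of the 73 injured counts. Col6a5 had 1.09 CPM in the tissue of E2A alone, against 0 to 211 CPM in injured flushes. Neither of these passed (edgeR adjusted p = 0.0923 and 0.117).

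Marker sums differed between wall and flush. All genes tested gave 13.5% higher and 22.0% lower calls in tissue. Smooth muscle markers summed to 30100 to 31200 CPM in tissue and 1190 to 1950 CPM in injured 48 h flushes, with 11 of 11 higher and none at 0. Fibroblast markers summed to 3410 to 4190 CPM in tissue and 1270 to 3190 CPM in injured 48 h flushes, with 10 of 12 higher, 2 lower and none at 0. Pericyte markers summed to 4440 to 5270 CPM in tissue, where none of the 8 was at 0, and 106 to 409 CPM in injured 48 h flushes, where Ndufa4l2 was at 0, with 6 of 6 tested higher. Their part in the collagen differences was not tested.

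Chains that assemble into one molecule were also compared as shares of the counts of the pair, which does not depend on library scaling. Col1a1 made up 37.6 ± 8.19% of Col1a1 and Col1a2 counts in injured 48 h flushes (21.2 to 46.2%, n = 9), against 3.21 ± 5.81% in uninjured flushes (0 to 17.0%, n = 9). No injured flush overlapped an uninjured one, and the difference was 34.4 percentage points (exact two-sided permutation p = 4.11e-05, the smallest these groups can give; Benjamini-Hochberg adjusted over 14 tests, 0.000576). With flushes of the same mouse paired, the exact permutation p was 0.00391, also the smallest possible. The difference was 33.3 points without E2A and 23.7, 38.7 and 40.7 points within batches. In injured 3 h flushes the share was 37.6 ± 7.22% (29.5 to 48.2%, n = 5), again above every uninjured flush (exact permutation p = 0.000999, adjusted 0.00699). In tissue it was 32.1 ± 0.759% (n = 3), and the difference from injured 48 h flushes did not pass (exact permutation p = 0.273). Uninjured flushes held Col1a2 at 89.1 to 254 CPM and Col1a1 at 0 to 51.4 CPM.

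Other shares differed less between groups. Col4a3 made up 62.4 ± 3.85% of Col4a3 and Col4a4 counts in tissue, 63.2 ± 5.31% in injured 48 h, 63.4 ± 5.04% in injured 3 h and 63.7 ± 4.61% in uninjured libraries (exact permutation p = 0.832 for injured 48 h over uninjured flushes, n = 9 each), while both genes fell in that comparison. Col4a1 made up 45.7 ± 2.5% of Col4a1 and Col4a2 counts in tissue (n = 3), against 58.1 ± 2.3% in injured 48 h flushes (n = 9). All 3 tissue values lay below all 9 (exact permutation p = 0.00909, the smallest possible; adjusted 0.0318). The same held for the share of Col6a1 in Col6a1 and Col6a2, which was 39.2 ± 0.699% in tissue and 51.3 ± 9.43% in injured 48 h flushes (exact permutation p = 0.00909, adjusted 0.0318). Both tissue tests treated the libraries as independent, although the 3 tissue mice are among the 9 flush mice. Without batch 1 the tissue shares differed from the flush by -14.0 points for Col4a1 and -9.74 points for Col6a1. Neither passed there (exact permutation, adjusted p = 0.2 for both). These shares were chosen for testing after their values were seen.

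**Figure D5:**
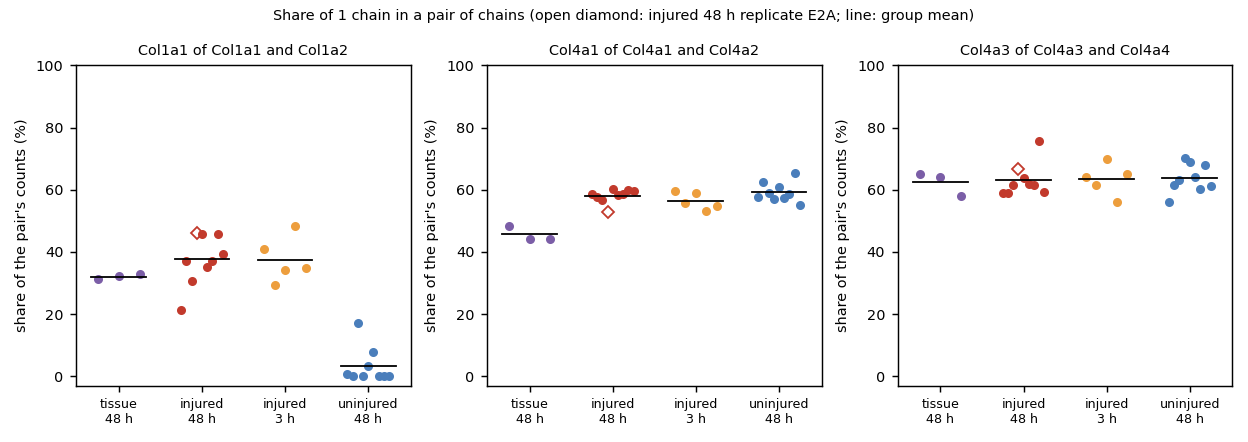
Share of 1 chain in the counts of a pair of chains, in percent (vertical axes), by group (horizontal axes), with points for libraries, lines for group means and an open diamond for the injured 48 h flush of mouse E2A. The Col1a1 share lies at 21.2% or more in every injured flush and at 17.0% or less in every uninjured flush, while the group means of the Col4a3 share lie between 62.4% and 63.7%.

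Genes that make, process or bind collagen were counted by list in the 48 h injury comparison, where the median log2 fold change was 0.18 over all genes tested. Of 22 tested genes for chain modification and folding, 4 were higher and 3 lower, with a median of 0.20, where all genes tested gave 24.6% higher and 18.0% lower. Serpinh1, the collagen chaperone of the endoplasmic reticulum, had 224 ± 44.9 CPM in injured 48 h flushes and 115 ± 24.9 CPM in uninjured flushes (log2 fold change 0.96 ± 0.13, edgeR adjusted p = 1.85e-06). Mia3, which loads collagen into transport carriers (log2 fold change 0.27 ± 0.06), and Colgalt1, a collagen galactosyltransferase (0.48 ± 0.11), were higher, and P3h3, a prolyl 3-hydroxylase family member (-0.52 ± 0.13), was lower (edgeR adjusted p = 0.00137, 0.00179 and 0.00191). Of 10 genes for procollagen processing, 1 was higher and 3 lower, with a median of 0.04. Pcolce2, an enhancer of propeptide cleavage, had 129 ± 31.0 CPM in injured 48 h flushes and 553 ± 52.4 CPM in uninjured flushes (log2 fold change -2.10 ± 0.20, edgeR adjusted p = 1.4e-08), and Adamts2, a propeptidase gene with counts in 1 uninjured flush, was higher (5.63 ± 1.26, edgeR adjusted p = 0.000937; 4.21 without E2A, which held 270 of its counts against 315 in the other 8 injured 48 h flushes). The metalloprotease genes Mep1b and Mep1a were lower (log2 fold changes -3.10 ± 0.90 and -3.94 ± 1.33, edgeR adjusted p = 0.00814 and 0.0208), and without E2A the value for Mep1a was -6.38. With 6 counts over the uninjured flushes, Adamts2 could in effect only be called higher. With 4 counts over the injured 48 h flushes, Mep1a could in effect only be called lower.

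Of 7 crosslinking genes 4 were higher and none lower (4 and 1 without E2A, where Lox had a log2 fold change of -0.28 at an edgeR adjusted p of 0.0485): the lysyl oxidase relatives Loxl1, Loxl2 and Loxl3 and the peroxidase gene Pxdn, which crosslinks type IV collagen and was also listed among the basement membrane partners. The median over the 7 was 1.63. Pxdn had 105 ± 32.3 CPM in injured 48 h flushes and 33.5 ± 21.1 CPM in uninjured flushes (log2 fold change 1.63 ± 0.36, edgeR adjusted p = 0.000805). Loxl2 had 845 counts in injured 48 h flushes, 394 of them in E2A, and none in uninjured flushes. Loxl2 could thus in effect only be called higher, and the crosslinking count and median include it. The log2 differences were 3.28 ± 0.76 for Loxl1 and 1.77 ± 0.62 for Loxl3 (edgeR adjusted p = 0.00135 and 0.0254), and without E2A that for Loxl1 was 2.39 (adjusted p = 0.00375). Of 17 degradation genes 6 were higher and 4 lower, with a median of 0.44 (0.13 without E2A), against the same 24.6% and 18.0% of all genes. Ctss, a lysosomal cysteine protease, was higher by 3.50 ± 0.41 on the log2 scale and Timp1, a metalloprotease inhibitor, by 4.50 ± 0.71 (edgeR adjusted p = 3.71e-07 and 2.17e-05). The inhibitor gene Timp2 (-0.55 ± 0.07) and the gelatinase gene Mmp2 (-0.82 ± 0.14) were lower (edgeR adjusted p = 2.04e-06 and 5.94e-05).

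Of 15 basement membrane partners 8 were higher and 4 lower, with a median of 0.66. For this list and those that follow, all genes tested gave 24.6% higher and 18.0% lower. The laminin genes Lamc1 (log2 fold change 1.03 ± 0.09) and Lamb1 (4.36 ± 0.60) and the linker gene Nid1 (0.66 ± 0.10) were higher, and the calcium-binding protein gene Smoc1 (-1.05 ± 0.14) was lower (edgeR adjusted p = 8.05e-09, 3.29e-06, 1.17e-05 and 2.9e-06). Of 17 fibril-associated genes 10 were higher and 3 lower, with a median of 1.46. Without E2A, 6 were higher and 3 lower, with a median of 0.59. Fbn1, the microfibril gene (1.46 ± 0.26), and Ogn, a small proteoglycan gene (2.54 ± 0.56), were higher, and the elastin gene Eln (-1.09 ± 0.20) and Fbln2 (-0.58 ± 0.14) were lower (edgeR adjusted p = 0.000107, 0.000882, 0.000105 and 0.00182). Of 12 collagen receptor genes 2 were higher and 1 lower, with a median of 0.01. Without E2A, 2 were lower. Lair1, an inhibitory receptor of leukocytes, was higher (1.84 ± 0.66) and Antxr1 was lower (-0.90 ± 0.18, edgeR adjusted p = 0.0269 and 0.000389). Cspg4 had 196 counts in injured 48 h flushes and none in uninjured flushes, so it could in effect only be called higher.

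In the 3 h comparison, modification and folding gave 4 higher and 2 lower, processing 0 and 2, crosslinking 2 and 0, degradation 5 and 4, receptors 2 and 2, basement membrane partners 3 and 3 and fibril-associated genes 4 and 0, where all genes tested gave 16.1% higher and 11.1% lower. Their median log2 fold changes were -0.01, -0.83, 0.00, 0.02, 0.11, -0.22 and 0.35 in that order, against 0.00 over all genes. Mia3 was higher (log2 fold change 0.82 ± 0.07) and Plod2, a lysyl hydroxylase gene, lower (-1.25 ± 0.24, edgeR adjusted p = 7.47e-09 and 0.000252). Mmp8, the neutrophil collagenase gene, was higher (4.83 ± 0.75, edgeR adjusted p = 2.46e-05). It had 201 ± 326 CPM in injured 3 h flushes (n = 5) and 7.24 ± 5.55 CPM in uninjured flushes (n = 9). Neutrophil markers, which include Mmp8, summed to 156 to 5570 CPM in injured 3 h flushes and 35.0 to 201 CPM in uninjured flushes. Of the 10, 9 were higher. Lox, a lysyl oxidase gene, and Tgm2, a transglutaminase gene, were the 2 crosslinking genes higher (0.41 ± 0.14 and 0.95 ± 0.24, edgeR adjusted p = 0.0309 and 0.00371). Serpinh1 was higher at 48 h than at 3 h (log2 fold change 1.41 ± 0.16, edgeR adjusted p = 5.03e-07), as were Pxdn (2.57 ± 0.47, adjusted p = 0.000335) and Lamc1 (0.53 ± 0.11, adjusted p = 0.00129). Between those times, the lists in the same order gave 2 higher and 3 lower, 1 and 1, 3 and 2, 4 and 3, 1 and 1, 6 and 2, and 1 and 3, where all genes tested gave 9.70% higher and 8.59% lower. Genes with no 3 h count, such as Loxl2, could in effect only be called higher at 48 h. The list medians were 0.05, -0.02, 1.65, 0.27, -0.12, 0.56 and 1.16 against 0.09 over all genes, and without E2A processing gave 1 and 2 and the fibril-associated median was 0.17. In tissue over injured 48 h flushes they gave 7 and 4, 4 and 2, 2 and 0, 1 and 3, 7 and 1, 4 and 2, and 13 and 2, where all genes tested gave 13.5% higher and 22.0% lower. The medians were 0.09, 0.91, 0.22, -0.02, 0.99, 0.03 and 2.81 against -0.15 over all genes. Adamts14 and Itga11 had no count in any flush and could in effect only be called higher in tissue. Without E2A, degradation gave 5 and 3, crosslinking 3 and 0, processing 5 and 1 and fibril-associated genes 13 and 1 with a median of 3.77. Among the genes of smallest p there were P3h2, a prolyl 3-hydroxylase gene (log2 fold change 4.15 ± 0.38), the collagen receptor kinase gene Ddr2 (3.59 ± 0.38) and Prelp, a proteoglycan gene (5.28 ± 0.51), with edgeR adjusted p of 2.42e-09, 2.92e-08 and 5.91e-09. Without E2A, P3h2, Ddr2 and Prelp stayed higher (edgeR adjusted p = 5.31e-09, 7.03e-12 and 4.5e-13).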

How the data were processed

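RNA sequencing libraries were made from 26 samples with the NuGEN Ovation ultralow kit, per the labels' protocols. The deposited table holds raw read counts per gene, which the authors made with HISAT2 2.0.3 on GRCm38 and HTSeq, per the submitters' processing notes. For the annotation, strand setting and filters, no source used here gives a statement. The authors' deposited table of comparisons (DESeq2 1.14.1) gives log2 fold changes and adjusted p-values. The headers write 0 h for the group that the labels place at 3 h, and the labels were followed. Date-like symbols filled 23 entries of the table, with at most 0.188% of a library's counts.

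Groups came from the labels, and the replicates within a group were separate mice. No 2 libraries were identical (smallest chi-square per degree of freedom 7.18). Counts were fitted in edgeR 4.0.16 (R 4.3.3) with TMM scaling, the default filter on low counts by group, 1 quasi-likelihood fit over the 26 libraries, no covariate and Benjamini-Hochberg adjustment over 13884 genes at 0.05. The procedure was run on simulated counts with a common dispersion, the same base levels in every group and no outlying library. That setting differs from these data, so it checks the code and not the calls. SE was the size of the log2 fold change divided by the square root of F. CPM were TMM-scaled. Chain shares were compared by exact two-sided permutation tests in scipy 1.17.1 (family of 14), chosen after the values were seen. Intervals and floors of 3 counts cover counting error only, and reads carried no molecular identifiers. Alternatives were DESeq2 1.42.0, other scaling, no filter, batch settings, thinning, leaving out libraries and a replicate block. The pathway lists, bounds and count ratios without single libraries, and the naming of Lox at 48 h, were chosen after the values were seen.

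The block pairs libraries of the same mouse. The correlation of their deviations ran from -0.127 to 0.207 over 9 injured and uninjured pairs, and from 0.0364 to 0.14 over 3 tissue and flush pairs. Every tested collagen gene is named with a value at least once, and the others by count. Of each pathway list, up to 4 genes of smallest p at 48 h and up to 2 in other comparisons are named. The members, classes and lists were chosen with earlier results of these data known.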

Additional observations from a re-analysis of the deposited data

Results flagged for a closer look

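In groups of 5 or 9 libraries, the gap between an extreme library and its neighbour was compared with the range of the group on the log2 scale (Dixon's ratio). Of 72 groups of collagen gene values, 20 exceeded the critical value. Its rate of about 1 in 20 holds for normal values and is no reference here. Some groups had counts in 1 library alone, where the ratio is 1.0 by construction. Of the 20, 12 were the injured 48 h flush of mouse E2A, read over genes that are not independent. That library was low for Col8a1 (ratio 0.656), Col4a1 (0.693), Col4a2 (0.601) and Col18a1 (0.498). It was high for Col3a1 (0.503), Col1a2 (0.538), Col5a1 (0.68), Col6a2 (0.515), Col6a1 (0.577), Col24a1 (0.647), Col6a6 (0.794) and Col27a1 (0.533). Its mesothelial, Schwann, macrophage, adipocyte and fibroblast markers were above those of the other 8 injured 48 h flushes, and their part was not tested.

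Among injured 3 h flushes, C2C was low for Col6a3 (13.4 CPM against 69.7 to 108, ratio 0.788). C3B was low for Col4a5 (0 against 5.74 to 14.7 CPM, ratio 0.762) and for Col6a2 (0.506 against 5.0 to 9.38 CPM, ratio 0.755). C2A was the one 3 h flush with Col4a6 (4.38 CPM, ratio 1.0). Among the other 48 h flushes, injured E3A was high for Col9a1 (6.47 CPM against at most 0.998, ratio 0.54) and uninjured E3B was low for Col3a1 (59.6 CPM against 129 to 238, ratio 0.556). Uninjured E2C alone held Col12a1 (4.8 CPM, ratio 1.0) and uninjured E1C alone held Col6a1 (0.261 CPM, ratio 1.0).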

How the results depend on the processing

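For injured 48 h over uninjured flushes, 15 higher calls became 9, 6 and 8 within batches 1, 2 and 3 and 8 under the replicate block (8 also without mouse E2A), and 4 lower calls became 1 within batch 2. For injured 3 h over uninjured flushes, 10 higher calls became 6, 2 and 4 within batches, 4 without batch 1 and 6 with only the 2 groups fitted. There the 3 lower calls became 1 within batch 1, 1 within batch 2, 1 without batch 1, 5 with DESeq2 size factors, 5 with batch as a covariate, 5 with only the 2 groups fitted and 6 by the DESeq2 Wald test. For injured 48 h over injured 3 h flushes, 6 higher calls became 3, 0 and 2 within batches and 1 without batch 1, and 3 lower calls became 1, 0 and 0 within batches and 0 without batch 1. For tissue over injured 48 h flushes, 13 higher calls became 0 within batch 2, 5 under the replicate block and 8 for the same 3 mice without it, and 4 lower calls became 2 within batch 2. These within-batch fits hold fewer libraries, and C3B is the only injured 3 h flush of batch 3. In the blocked fit of injured 48 h and uninjured flushes, Col12a1, Col15a1, Col6a5, Col6a6 and Col27a1 missed the filter and were not tested. Among the genes tested there, Col3a1 and Col1a2 lost their higher call. The cause of the other changes was not tested. Leaving out 1 library gave 11 to 15 higher and 3 to 6 lower calls in the first comparison, 8 to 9 and 1 to 5 in the second, 3 to 7 and 1 to 4 in the third, and 11 to 17 and 3 to 5 in the fourth. The lowest count of lower calls in the second came without C1A or C3B, and the lowest in the third without C2A.

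Direction turned within a batch for Col3a1 (-0.37) and Col1a2 (-0.60) at 48 h over uninjured flushes in batch 1, and for Col6a1 (-0.09) at 48 h over 3 h in batch 3; the cause was not tested. The replicate block changed no call of a collagen gene it tested other than those given above. Without a filter on low counts, 113 of 116 gene results kept direction and call. With counts thinned to the smallest total, 100 of 104 did in the first of 5 random draws. Over the 5 draws there were 14 to 15 higher and 4 lower calls in the first comparison, 9 and 4 to 6 in the second, 5 to 7 and 3 to 4 in the third, and 10 to 11 and 3 to 4 in the fourth. With DESeq2 size factors, all genes shifted by -0.039, -0.004, 0.02 and 0.079 on the log2 scale. Depth limits the genes with few counts, above all in uninjured flushes.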
